A study of Mus musculus with 6 samples.

Results

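Nlrp5-ps and Vmn1r90 are a pair of genes on mouse chromosome 7. They were picked from the table of read counts by their symbols, because both had been called higher in Bahd1-KO when one Bahd1-KO embryo was left out. They are 2 of the 53801 genes of the table. The libraries came from polyadenylated RNA of whole brains of mouse embryos at stage E16.5, from 3 Bahd1-KO embryos (genotype Bahd1-/-, no intact copy of the gene) and 3 Bahd1-WT embryos (genotype Bahd1+/+), all labelled with the strain C57BL/6. BAHD1 is a scaffold of chromatin-repressive complexes, and Bahd1-KO embryos came from matings of heterozygous mice. The labels name no treatment beyond the knockout. Nothing in the labels says whether embryos of both genotypes were littermates, so p-values measure the spread between these 6 embryos.

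Nlrp5-ps is a transcribed pseudogene related to Nlrp5. The protein NLRP5, also called MATER, is stored in the oocyte as part of the subcortical maternal complex and is needed by the early cleaving embryo, so Nlrp5 is known as a gene of the female germ line rather than of the brain. Vmn1r90 belongs to the vomeronasal type 1 receptors, G protein-coupled receptors with which sensory neurons of the vomeronasal organ detect pheromones. Receptor genes of this family lie in large clusters of close copies and are mostly silent outside those neurons.

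Both genes turned out to be more than neighbours. Nlrp5-ps (ENSMUSG00000041596, annotated as a transcribed unprocessed pseudogene) lies on the reverse strand at chr7:14530652-14622479 (GRCm38). Vmn1r90 (ENSMUSG00000100586, protein-coding) lies on the same strand at chr7:14555474-14563506, wholly inside the span of Nlrp5-ps. Its start was 58.97 kb downstream of the start of Nlrp5-ps, and its end was 24.8 kb short of the end of Nlrp5-ps. GENCODE M21 gave 4 transcripts for Nlrp5-ps and 9 for Vmn1r90. Of the 7796 exonic bases of Vmn1r90, 1757 (22.5%) were also exonic in Nlrp5-ps, where they made up 40.5% of the exonic bases. Most of this overlap, at chr7:14561360-14563054, came from the last exon of a single transcript, Nlrp5-ps-203. It took in 812 of the 927 coding bases of Vmn1r90 before the stop codon (87.6%).

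This arrangement decides what each count can hold. featureCounts leaves out a read that overlaps the exons of more than 1 gene unless told otherwise, and the settings given in the study's methods do not name that option. Under those settings and these gene models, reads of Vmn1r90 came from 6039 bases annotated to it alone, of which 115 are coding, and reads of Nlrp5-ps came from 2578 bases of its own. By annotated length, the value called Vmn1r90 was therefore for the most part open to transcribed sequence outside the receptor's coding region. Positions of reads were not available. The 5886 bases at chr7:14555474-14561359, annotated to Vmn1r90 alone, lie within the last intron of Nlrp5-ps-201 on the same strand. Which gene's RNA gave the reads there was not tested. Gene models of the release used for counting may differ from those used here.

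**Figure D1:**
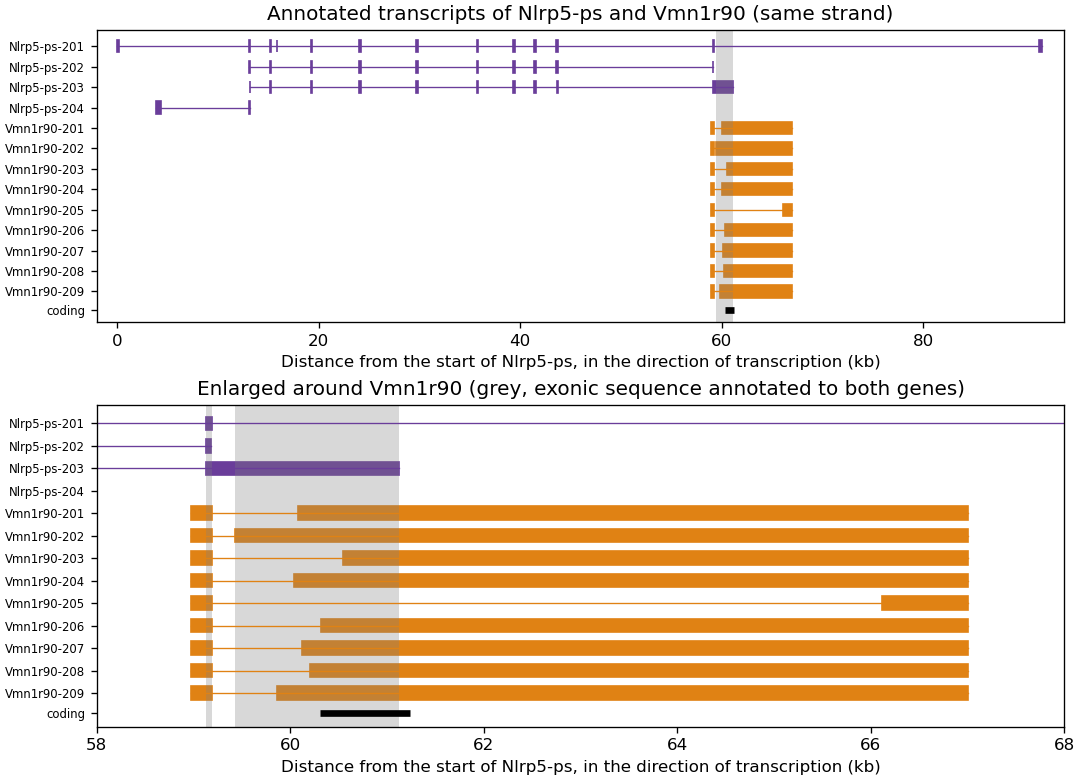
Annotated transcripts of Nlrp5-ps (purple) and Vmn1r90 (orange) against the distance in kb from the start of Nlrp5-ps, whole (upper) and enlarged (lower); boxes are exons, lines are introns, the black bar is the coding sequence of Vmn1r90 and grey marks the 1757 exonic bases annotated to both. Vmn1r90 sits inside Nlrp5-ps, and grey covers 812 of its 927 coding bases.

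The end of the coding sequence shows where the shared stretch stops. All sequences are those of GENCODE M21 transcripts. The sequence below (chr7:14561242-14561419, reverse strand, GRCm38, read 5′ to 3′) is in lower case where the bases are exonic in both genes and in capitals where they belong to Vmn1r90 alone, up to its stop codon. The second sequence (chr7:14563292-14563321, reverse strand) is the end of an exon that both genes share. In Vmn1r90 it closes the first exon of all 9 transcripts, and in Nlrp5-ps-201 it closes exon 12, with the last bases in capitals.
Vmn1r90 coding end: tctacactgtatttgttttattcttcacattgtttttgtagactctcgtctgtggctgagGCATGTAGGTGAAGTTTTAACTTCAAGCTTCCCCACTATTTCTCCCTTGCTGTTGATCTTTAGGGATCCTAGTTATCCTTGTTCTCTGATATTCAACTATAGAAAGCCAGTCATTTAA
Shared exon end: tcatagcattaagaagaaactaagggaCAG

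Because both genes have close copies, their transcripts were compared with all annotated transcripts. Nlrp5-ps resembled Nlrp5 itself, which lies on the forward strand of the same chromosome at chr7:23385889-23441922. In transcript Nlrp5-ps-201, which has 13 exons, the best alignment to an Nlrp5 transcript covered 1025 bases at 97.1% identity (BLAST). This alignment lay within exons 6 to 11. Aligned one by one to an Nlrp5 transcript, exons 2 to 11 each had 81.4 to 99.4% of their bases identical, with exons 2 and 4 matching at the same place. Exons 1, 12 and 13 had no long match to Nlrp5, with 7.18 to 25.8% of their bases identical. Exon 8 and exon 10 are printed beside the matching stretches of Nlrp5, with the differing bases in capitals, because they show how little separates reads of the pseudogene from reads of the gene. Exon 8 (chr7:14586618-14586788, reverse strand) differed at 1 of 171 bases and exon 10 (chr7:14580934-14581104, reverse strand) at 5 of 171. The Nlrp5 stretches lie at chr7:23430029-23430199 and chr7:23435747-23435917 on the forward strand.
Nlrp5-ps exon 8: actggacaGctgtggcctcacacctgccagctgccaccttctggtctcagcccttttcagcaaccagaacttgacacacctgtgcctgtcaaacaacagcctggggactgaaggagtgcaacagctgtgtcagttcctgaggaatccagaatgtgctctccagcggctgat
Nlrp5 for exon 8: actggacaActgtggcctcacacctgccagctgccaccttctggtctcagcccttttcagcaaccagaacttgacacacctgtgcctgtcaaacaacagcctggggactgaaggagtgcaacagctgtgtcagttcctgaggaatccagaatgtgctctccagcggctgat
Nlrp5-ps exon 10: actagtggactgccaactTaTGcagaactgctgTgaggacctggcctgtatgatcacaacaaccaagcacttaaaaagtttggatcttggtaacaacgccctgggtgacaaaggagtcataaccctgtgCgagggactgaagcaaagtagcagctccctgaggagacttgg
Nlrp5 for exon 10: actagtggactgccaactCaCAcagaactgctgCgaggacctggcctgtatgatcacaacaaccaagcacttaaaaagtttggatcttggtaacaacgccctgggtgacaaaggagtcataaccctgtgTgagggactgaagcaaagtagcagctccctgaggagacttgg

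**Figure D2:**
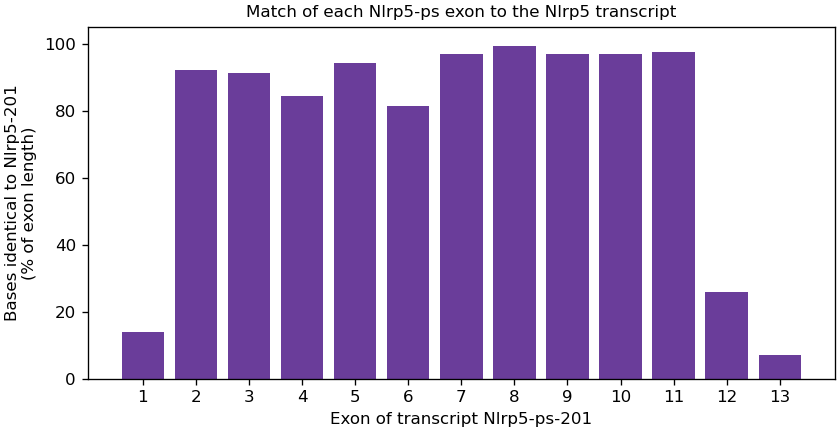
Bases of each of the 13 exons of transcript Nlrp5-ps-201 that are identical to the Nlrp5 transcript, as a percentage of the exon's length (bars). Exons 2 to 11 reach 81.4 to 99.4%, while exons 1, 12 and 13 stay at 25.8% or less.

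For Vmn1r90 the closest coding sequences were Vmn1r177 (94.2% identity over all 930 bases with the stop codon), Vmn1r168 (94.1%) and the pseudogene Vmn1r-ps84 (93.2%). The first 120 coding bases of Vmn1r90 (chr7:14562052-14562171, reverse strand) and Vmn1r177 (chr7:23866330-23866449, reverse strand) are given with their 5 differences in capitals, as an example of how near these receptors are to each other.
Vmn1r90: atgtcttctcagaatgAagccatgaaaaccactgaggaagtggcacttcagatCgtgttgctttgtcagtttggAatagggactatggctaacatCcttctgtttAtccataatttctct
Vmn1r177: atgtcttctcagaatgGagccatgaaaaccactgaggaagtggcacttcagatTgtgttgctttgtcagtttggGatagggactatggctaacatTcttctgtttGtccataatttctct

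Windows of 65 bases, the read length in the study's main methods, were used to ask how often such copies could be confused without a mismatch. Of 4389 such windows in the transcripts of Nlrp5-ps, 289 (6.58%) occurred in a transcript of a gene outside the pair, 232 of them in Nlrp5. Of 8215 windows of Vmn1r90, 70 (0.852%) did so, in Vmn1r168, Vmn1r177 or Vmn1r-ps84. Between Nlrp5-ps and Vmn1r90 themselves 1635 windows were shared. Reads there would be left out of both counts under the featureCounts settings described above. The percentages cover all windows of each gene, countable or not. The supplementary methods also name a paired-end run with shorter reads. Windows of 50 and 34 bases, added after seeing the data, were shared more often, at 9.79% and 16.1% for Nlrp5-ps and 1.73% and 5.29% for Vmn1r90. The copies named were close to silent in the brains. Nlrp5 had 1 count over all 6 embryos, in Bahd1-KO replicate 1, while Vmn1r168, Vmn1r177 and Vmn1r-ps84 had 0 counts in every embryo. The exception was Zbtb10, a zinc finger gene on chromosome 3, whose transcript matched the first exon of Nlrp5-ps over 157 bases with 1 mismatch and shared 28 windows with it. Its mean level in CPM (counts scaled to the same library total in every embryo) was 52.0 for Bahd1-KO embryos and 54.0 for Bahd1-WT embryos (log2 fold change 0.10, SE 0.26, edgeR adjusted p 0.901). Only annotated transcripts were searched, not the genome.

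Some facts of the libraries touch the values that follow. Bahd1 ranged from 2 to 10 counts among the knockouts and from 1971 to 3470 among the wild types, which fits the labels, and libraries held 61724000 to 91782802 counts. Bahd1-KO replicate 3 stood apart. Gm42418, annotated over ribosomal RNA sequence, and both mitochondrial ribosomal RNAs took 22.6% and 22.1% of its counts, against at most 0.394% and 0.279% in the others. In this embryo 7 brain markers (Tubb3, Dcx, Stmn2, Map2, Sox2, Pax6, Nes) summed to 732 CPM against 7944 to 9139 in the other 5, 5 lung markers to 859 CPM against 14.8 to 29.4, and 6 skeletal muscle markers to 43.6 CPM against 3.61 to 12.6. Of the lung markers, Scgb1a1 was highest in another Bahd1-KO embryo (6.68 CPM), and stood at 28.0 times the Bahd1-WT mean in Bahd1-KO replicate 3. The part of these differences in the values of Nlrp5-ps and Vmn1r90 was not tested. Since a few very abundant RNAs lower the CPM of all other genes of an embryo, levels are also given after scaling by trimmed mean of M-values (TMM). In whole tissue, fewer cells of a type and less RNA per cell cannot be told apart.

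For Nlrp5-ps the Bahd1-KO embryos (here and below in order of replicate) gave 540, 399 and 772 counts, or 8.75, 5.22 and 9.78 CPM. The Bahd1-WT embryos gave 210, 226 and 207 counts, or 2.29, 2.77 and 2.27 CPM. All 3 Bahd1-KO embryos lay above all Bahd1-WT embryos, and the wild type embryos differed little among themselves. Mean levels of 7.92 ± 2.39 CPM for the knockouts and 2.44 ± 0.285 CPM for the wild types (SD, n = 3 each) gave a ratio of 3.24. Scaled by TMM, Bahd1-KO replicate 3 rose to 14.3 CPM and the ratio to 4.01, without a change in which embryos were high.

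For Vmn1r90 the Bahd1-KO embryos gave 183, 125 and 47 counts, or 2.96, 1.63 and 0.595 CPM. The Bahd1-WT embryos gave 60, 31 and 42 counts, or 0.654, 0.380 and 0.460 CPM. Bahd1-KO replicates 1 and 2 lay above the wild type embryos, while Bahd1-KO replicate 3 lay among them. Mean levels of 1.73 ± 1.19 CPM for the knockouts and 0.498 ± 0.141 CPM for the wild types (SD, n = 3 each) gave a ratio of 3.48. The overlap depended on the scaling, because with TMM Bahd1-KO replicate 3 was at 0.871 CPM and the highest wild type embryo at 0.627. Of all 24739 genes tested, 3.97% had every Bahd1-KO embryo above every Bahd1-WT embryo in CPM and 4.47% in TMM-scaled CPM. Nlrp5-ps was among them on both scales and Vmn1r90 only on the second, but both genes were chosen for this contrast, so nothing is read from it.

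**Figure D3:**
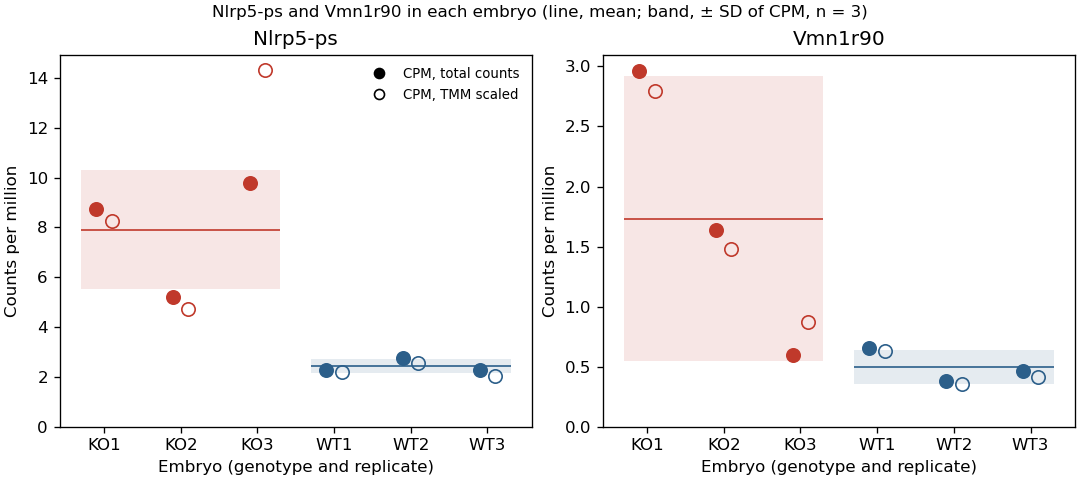
Levels of Nlrp5-ps (left) and Vmn1r90 (right) in CPM for each embryo (KO, Bahd1-KO; WT, Bahd1-WT), with filled points for CPM of total counts, open points for TMM-scaled CPM, lines for the mean and bands for ± SD of CPM (n = 3). Nlrp5-ps is above 5 CPM in every Bahd1-KO embryo and below 3 in every Bahd1-WT embryo, whereas Vmn1r90 in KO3 falls to 0.595 CPM, inside the wild type range.

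The values that chose both genes came from DESeq2 without Bahd1-KO replicate 3, which called 11 of 23334 genes (0.0471%), 9 of them higher in Bahd1-KO (0.0386%). There Vmn1r90 had a log2 fold change of 2.18 (SE 0.45, DESeq2 adjusted p 0.00307) and Nlrp5-ps one of 1.498 (SE 0.34, DESeq2 adjusted p 0.0207). Rn7sk was the last gene inside the threshold of 0.05 (DESeq2 adjusted p 0.0376) and Mid1 the first outside it (DESeq2 adjusted p 0.0882). With all 6 embryos, edgeR's quasi-likelihood fit gave a log2 fold change of 2.002 (SE 0.47) for Nlrp5-ps and 1.88 (SE 0.56) for Vmn1r90, with an adjusted p of 0.696 for each. Unadjusted, their edgeR p-values were 0.00341 and 0.0120, where 4.51% of all genes tested were higher with a p under 0.05. In that fit 1 of 24739 genes (0.00404%) was called, and this gene was Bahd1. DESeq2 on all 6 embryos gave adjusted p-values of 0.0921 for Nlrp5-ps and 0.651 for Vmn1r90, and 8 genes were called (0.0323%), 5 of them higher in Bahd1-KO (0.0202%). Without Bahd1-KO replicate 3 edgeR called 4 genes (0.0171%), 2 of them higher (0.00857%), and gave both genes of the pair an adjusted p of 0.981, so that their call depended on the tool.

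Bahd1-KO replicate 3 was the embryo that the choice did not use. In it Nlrp5-ps stood at 4.004 times the Bahd1-WT mean in CPM (6.31 times when scaled by TMM), beside 2.86 times for the other Bahd1-KO embryos together. For Vmn1r90 it stood at 1.20 times the Bahd1-WT mean in CPM (1.87 times when scaled by TMM), beside 4.62 times for the other Bahd1-KO embryos. All of these ratios share the same Bahd1-WT embryos, which the choice did use, so they are not independent of it. A single embryo against 3 cannot give an exact permutation p under 0.25, so these are values without a test.

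The balance between both genes does not depend on scaling, but it comes from counts that chose them, so it is given without a test. In the Bahd1-KO embryos Vmn1r90 took 25.3%, 23.9% and 5.74% of the counts of the pair (95% Wilson intervals 22.3 to 28.6%, 20.4 to 27.7% and 4.34 to 7.55%). In the Bahd1-WT embryos it took 22.2%, 12.1% and 16.9% (95% Wilson intervals 17.7 to 27.6%, 8.63 to 16.6% and 12.7 to 22.0%). The interval of Bahd1-KO replicate 3 lay below those of the other 5 embryos. The mean share was 18.3 ± 10.9% for the knockouts and 17.1 ± 5.08% for the wild types (SD, n = 3 each), a difference of 1.25 percentage points. Without Bahd1-KO replicate 3 the mean share of the knockouts was 24.6% and the difference 7.53 percentage points. Both remaining knockouts then lay above every wild type embryo, though the intervals of Bahd1-KO replicate 2 and Bahd1-WT replicate 1 overlapped. The embryos that remain are those whose counts chose both genes, so nothing is read from this. Intervals cover counting error only.

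**Figure D4:**
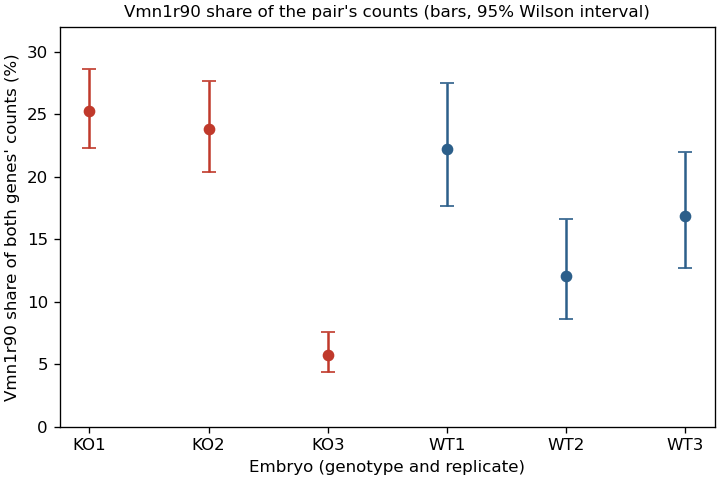
Share of Vmn1r90 in the summed counts of Nlrp5-ps and Vmn1r90 in percent for each embryo (red, Bahd1-KO; blue, Bahd1-WT), with 95% Wilson intervals as bars. KO3, at 5.74%, is below the intervals of the other 5 embryos, and genotypes overlap.

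Levels of both genes were compared per kb of the exonic sequence annotated to each alone. On this scale Nlrp5-ps in Bahd1-KO came first at 3.07 ± 0.928 CPM per kb, followed by Nlrp5-ps in Bahd1-WT at 0.947 ± 0.110, Vmn1r90 in Bahd1-KO at 0.287 ± 0.197 and Vmn1r90 in Bahd1-WT at 0.0825 ± 0.0233 (SD, n = 3 each). The last 2 of these overlapped, from 0.0986 to 0.491 CPM per kb in Bahd1-KO and from 0.0629 to 0.108 in Bahd1-WT. Each of the other steps separated ranges that did not overlap. The step between genotypes for Nlrp5-ps is the contrast that chose this gene, so nothing is read from that step. In CPM, 3.97% of all genes tested had every Bahd1-KO embryo above every Bahd1-WT embryo.

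The surrounding genes were not used in the choice. Within 500 kb of the pair the table held 45 other genes, 37 of them pseudogenes and 6 protein-coding. Names of the Obox family, homeobox genes of the oocyte and early embryo, made up 21 of them, and 6 were named Sult2a, after sulfotransferases of the liver. In 38 of the 45 genes no embryo had a count, and none had a mean of 1 CPM. This held for Obox4-ps3, Zfp-ps and Ranbp2-ps1, which lie inside Nlrp5-ps on the opposite strand and had 0 counts in every embryo. Only 3 neighbours passed the minimum of 10 counts, namely Obox4-ps2, Obox3-ps7 and Phf20-ps. Of these, 2 were higher and 1 was lower in the knockouts (median log2 fold change 1.00), and 0 were called by edgeR (1 at an unadjusted p under 0.05). The direction turned in a wider window of 2 Mb, chosen after seeing the data, where 17 of 57 genes were higher and 40 lower (median -0.34). The median of the 3 genes also moved with the filter on low counts, to 2.12 over 7 genes without one and to 0.39 over 2 genes with filterByExpr. Over all genes tested the median was 0.06 and 53.8% were higher.

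The unprocessed pseudogene Obox3-ps7 (chr7:14634039-14634573, forward strand) lies 11.6 kb upstream of Nlrp5-ps and is read in the opposite direction. Its counts were 28, 15 and 16 for the knockouts and 13, 10 and 6 for the wild types. Knockouts ranged from 0.196 to 0.454 CPM and wild types from 0.0657 to 0.142 CPM, so that genotypes did not overlap, as for 3.97% of all genes tested. The log2 fold change was 1.53 (SE 0.61, p 0.0389, adjusted p 0.696, edgeR), which did not pass the threshold.

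On the other side, Obox4-ps2 (chr7:14529625-14530066, reverse strand) begins 0.586 kb beyond the end of Nlrp5-ps on the same strand. Its counts were 8, 11 and 1 for the knockouts and 7, 2 and 4 for the wild types. The genotypes differed by 1.00 on the log2 scale (SE 0.85, edgeR adjusted p 0.708), and the embryos of both genotypes overlapped. Bahd1-KO replicate 3 was the lowest embryo, as it was the lowest Bahd1-KO embryo for Vmn1r90. Phf20-ps, a processed pseudogene 223 kb from the end of Nlrp5-ps, showed 33, 0 and 30 counts for the knockouts and 4, 80 and 96 for the wild types, with high and low embryos in both genotypes. The nearest protein-coding genes outside the pair were all but silent, with 1 count over all embryos for Sult2a7, 36.4 kb away, and 4 for Obox7, 37.0 kb away, all of the latter in Bahd1-KO replicates 1 and 2.

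**Figure D5:**
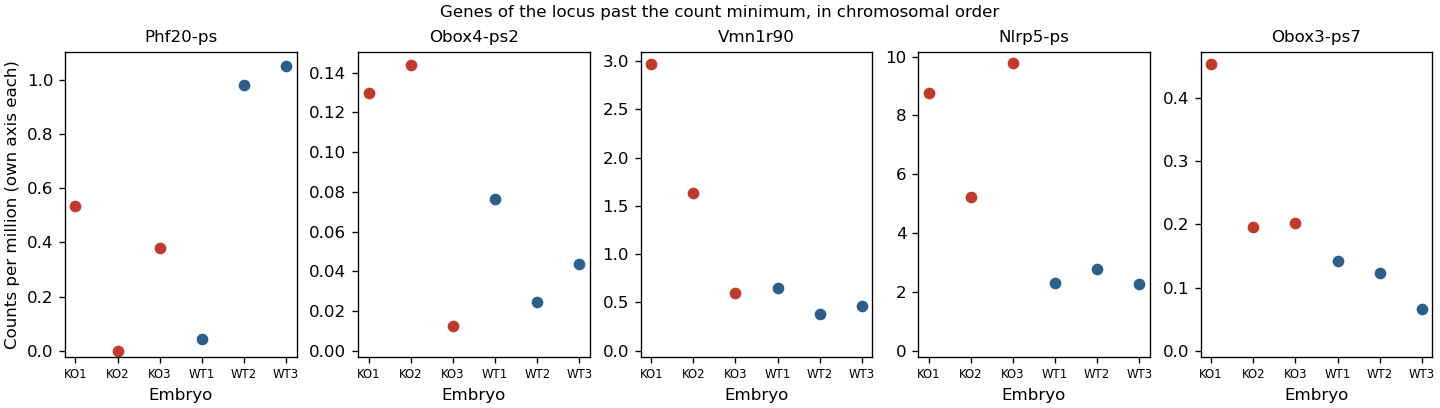
Levels in CPM of the 5 genes of the locus with a sum of at least 10 counts, in chromosomal order and each on its own axis (KO and red, Bahd1-KO; WT and blue, Bahd1-WT). Nlrp5-ps, chosen for this contrast, and Obox3-ps7 are higher in all 3 Bahd1-KO embryos than in any Bahd1-WT embryo. The same holds for 3.97% of all genes tested. Vmn1r90, also chosen for this contrast, Obox4-ps2 and Phf20-ps overlap between genotypes.

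Genes of both families, and of the cells known to use them, were counted next. Among 326 vomeronasal type 1 receptor genes of the table, 278 had 0 counts in all embryos and 6 passed 10 counts. Vmn1r90 held 42.1% of the counts of the family over the wild types and 70.0% over the knockouts, for which it was chosen as high. These shares are not corrected for length. Of the 5 further members tested, 3 were higher and 2 lower in the knockouts (median log2 fold change 0.08), and 0 were called (0 at an unadjusted p under 0.05, edgeR). Trpc2, the cation channel that defines vomeronasal sensory neurons, had 0 counts in every embryo. Gnao1 and Gnai2 encode G protein subunits that are also used widely in brain neurons. Their means were 538 ± 347 and 173 ± 62.0 CPM for the knockouts (SD, n = 3). For the wild types they were 849 ± 79.4 and 250 ± 58.6 CPM (SD, n = 3). Without Bahd1-KO replicate 3 the knockouts averaged 736 and 193 CPM. Of the 4 vomeronasal neuron markers tested, 1 was higher and 3 were lower (median log2 fold change -0.20), and 0 were called (0 at an unadjusted p under 0.05, edgeR). Summed, these markers reached 275 CPM in Bahd1-KO replicate 3 and 828 to 1200 CPM in the other embryos. Of 6 markers of olfactory sensory neurons, all tested, 4 were higher and 2 lower in the knockouts (median log2 fold change 0.68), and 0 were called (0 at an unadjusted p under 0.05, edgeR). Their sum was 73.4 CPM in Bahd1-KO replicate 3 and 208 to 329 CPM in the other embryos. Of the 3 with a mean of at least 1 CPM, Gnal and Adcy3 were lower and Gng13 was higher. Gng13 stood at 7.39 times the Bahd1-WT mean in Bahd1-KO replicate 3 and at 1.05 times in the other knockouts together.

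Oocyte genes were examined on the side of Nlrp5-ps. Of 13 Nlrp genes of oocytes, 6 had 0 counts in all embryos and 1 passed 10 counts (Nlrp4f, 1 to 11 counts per embryo, log2 fold change 0.16, SE 0.78). Summed, they reached 0.0380 to 0.211 CPM among the knockouts and 0.0858 to 0.120 CPM among the wild types. Of 6 genes of the subcortical maternal complex, 3 had a mean of at least 1 CPM. Zbed3 stood at 23.6 ± 2.76 CPM for the knockouts and 23.9 ± 1.96 for the wild types, Ooep at 3.34 ± 2.02 and 3.58 ± 0.852, and Tle6 at 1.28 ± 0.794 and 0.952 ± 0.224 (SD, n = 3 each). Of the 5 tested, 3 were higher and 2 lower (median log2 fold change 0.21), and 0 were called (0 at an unadjusted p under 0.05, edgeR). Of 8 oocyte markers such as Zp3 and Bmp15, 6 were tested, 3 higher and 3 lower, and only the growth factor Gdf9 had a mean of at least 1 CPM (knockouts 0.963 ± 0.659, wild types 1.79 ± 0.558, SD, n = 3 each). None of the 6 was called (0 at an unadjusted p under 0.05, edgeR).

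The genes with the most similar centred levels over the embryos were listed for each member. Likeness was the root mean square difference of log2 levels over the 6 embryos, each gene centred on its own mean, with TMM scaling and 0.5 CPM added. For Nlrp5-ps the closest were Rsad2, an antiviral enzyme induced by interferon (0.30), the pseudogene Olfr1372-ps1 (0.32), Prdm1, a transcriptional repressor (0.35), Fam46c (0.40) and the phosphatase gene Cdc14b (0.40). Counts of Rsad2 were 97, 110 and 337 for the knockouts and 42, 37 and 40 for the wild types, highest in Bahd1-KO replicate 3 as Nlrp5-ps was. For Vmn1r90 they were Gm14089 (0.28), Gm13803 (0.30), Gm3555 (0.37), Asns, the asparagine synthetase (0.37), and Mid1, a ubiquitin ligase on the X chromosome (0.39). Gm14089 and Gm13803 lie on chromosome 2, as does Bahd1 itself, and the part of this in their levels was not tested. Counts of Gm13803 were 63, 55 and 15 for the knockouts and 23, 22 and 2 for the wild types, lowest among the knockouts in replicate 3 as for Vmn1r90. Gm14089 had 55, 70 and 26 counts for the knockouts and 3, 1 and 1 for the wild types. Gm3555 had 49, 36 and 35, and 0, 1 and 1. At such low counts in the wild types, the added 0.5 CPM narrows differences. In DESeq2 without Bahd1-KO replicate 3 the log2 fold changes of Gm14089 and Gm3555 were 5.56 and 6.36, against 2.18 for Vmn1r90. None of these 10 genes lies on chromosome 7, but the share of all genes tested on that chromosome was not counted, so nothing is read from this. Between Nlrp5-ps and Vmn1r90 themselves the difference was 0.75. This put Vmn1r90 at place 4148 for Nlrp5-ps and Nlrp5-ps at place 13253 for Vmn1r90, among the 24739 genes tested. Levels were centred but not scaled, so the size of a change counts as well as its course. A gene that varies little can therefore rank ahead, and these places do not measure likeness of course alone. By far the widest gap between both genes was in Bahd1-KO replicate 3, with centred levels of 1.59 for Nlrp5-ps and -0.04 for Vmn1r90. The genotype contrast that chose both genes is part of this likeness measure, so the matches are a description over 6 embryos.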

How the data were processed

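Counts of reads in each gene, neither normalized nor filtered, were deposited by the authors for all 6 embryos. According to the study's methods and the submitters' processing notes, the authors trimmed reads with cutadapt (1.11), aligned them to GRCm38 (STAR 2.5.0a, with TopHat2 also named) and counted them over exons of Ensembl genes on 1 strand with featureCounts (1.4.6-p3). The libraries were made with a stranded kit according to the main methods, and the strand setting could not be checked against reads. The methods describe more than one sequencing run and aligner. Columns were matched to embryos by the descriptions given to the samples. A minimum of 10 counts over all embryos was set, and the remaining genes were fitted with edgeR (4.0.16, R 4.3.3), quasi-likelihood, TMM factors, genotype as the single term, two-sided, adjusted by Benjamini-Hochberg over all genes at 0.05. The SE was the log2 fold change divided by the square root of F. DESeq2 (1.42.0) was an alternative. Both fits were tested on simulated counts. Gene models were those of GENCODE M21 (GRCm38), which matched 99.8% of genes, and transcripts were compared with BLAST (2.17.0) and Biopython (1.88), local alignment. Beside the pair, genes were named by rule: the adjacent genes, the 3 neighbours within 500 kb past the count minimum with the largest change, at most 5 members per list with a mean of at least 1 CPM, the closest relatives in sequence, and the 5 genes most like each member over the embryos. Sult2a7, Obox7, Nlrp4f, Trpc2 and the genes inside Nlrp5-ps were named after their values were seen. Both genes and all lists were chosen with earlier results of these data known. Libraries of 61724000 to 91782802 counts limit Vmn1r90 to 31 to 183 counts per embryo. Whether replicate numbers pair the embryos could not be decided. Alternatives were another filter, other factors, DESeq2, a replicate block and each embryo left out.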

Additional observations from a re-analysis of the deposited data

How the results depend on the processing

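The log2 fold changes of Nlrp5-ps (1.49 to 2.28) and Vmn1r90 (1.34 to 2.18) stayed positive under all alternatives run. Both genes were chosen for this contrast in these same embryos, so nothing is read from the sign. An adjusted p under 0.05 came only from the fit that chose them, DESeq2 without Bahd1-KO replicate 3. Leaving out 1 embryo at a time gave 1.49 to 2.28 for Nlrp5-ps and 1.34 to 2.17 for Vmn1r90, lowest without Bahd1-KO replicate 3 and without Bahd1-KO replicate 1 respectively, and 0 to 4 called genes instead of 1. The 4 calls came when Bahd1-KO replicate 3 was omitted, and each of the 5 remaining fits made 0 (unadjusted edgeR p under 0.05 in 154 to 4878 genes over these 6 fits). DESeq2 called 8 genes, and 11 without Bahd1-KO replicate 3.

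The median log2 fold change of the neighbours rests on 3 genes. It was 2.12 with no filter (7 genes), 0.39 with filterByExpr (2 genes), 1.46 in DESeq2 without Bahd1-KO replicate 3 and 0.62 to 1.47 with 1 embryo left out, lowest without Bahd1-KO replicate 2 and highest without Bahd1-WT replicate 1. In a window of 2 Mb, chosen after seeing the data, it was -0.34 over 57 genes, 17 higher and 40 lower, and the cause was not tested. Leaving ribosomal and mitochondrial RNA genes out, also chosen after seeing the data, gave 1.98 for Nlrp5-ps and 1.86 for Vmn1r90.

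With the replicate number as a block, edgeR called 0 genes (unadjusted p under 0.05 in 517), the neighbours' median was 0.87, and the log2 fold changes were 1.87 for Nlrp5-ps and 1.77 for Vmn1r90. Between embryos of equal number, the correlation across genes of their deviations from the genotype means was 0.26, 0.34 and -0.12. Bahd1-KO replicate 3, which stood apart, enters the Bahd1-KO mean and so the deviations of the other Bahd1-KO embryos. These correlations therefore cannot decide whether the numbers pair the embryos. Vmn1r90 had 31 to 60 counts per Bahd1-WT embryo.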
